A study of Mus musculus with 9 samples.

Results

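The BCL2 family decides whether a cell under stress opens the outer membrane of its mitochondria and dies. Here 10 of its genes were followed in mouse natural killer (NK) cells: the guardians Bcl2, Bcl2l1 and Mcl1, the pore-forming effectors Bax and Bak1, and the BH3-only genes Bcl2l11, Bbc3, Pmaip1, Bid and Bmf. The genes were chosen by symbol, and each matched 1 of the 27179 Entrez genes counted in every library. Spleen NK cells lacking Id2 (Id2-null) and wild-type (WT) ones, all on the C57BL/6 strain, had been kept for 7 days in interleukin-15 (IL-15), with 3 RNA sequencing libraries per genotype. A further 3 libraries, 1 each, came from wild-type NK populations named Immature, M1 and M2 that were sorted from spleen and lysed without culture. The labels assign culture to samples 1 to 6 without numbering the samples, and the 6 libraries with a replicate number were taken to be those. The sources used here do not give how Id2 was removed, the sorting markers, or the number, sex and age of the mice. They do not say whether replicates were separate mice either. The p-values therefore set the genotype difference only against the spread between these libraries, part of which may be technical.

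In a healthy cell the guardian proteins hold the effectors and the BH3-only proteins in check. BH3-only proteins such as BIM, the product of Bcl2l11, occupy the guardians or engage the effectors directly, and freed BAX and BAK then release cytochrome c, which starts the caspases. NK cells depend on IL-15 for survival, and BCL2 and MCL1 are known as the guardians through which IL-15 keeps them alive, with BIM as a main opponent. ID2 is a helix-loop-helix protein that keeps E proteins off DNA, and the series asks how it sets the sensitivity of NK cells to IL-15.

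Each library held 4128414 to 4831831 counts, and the rarest member, Pmaip1, still had 16 counts in its lowest library. Levels are given as CPM, each count set relative to a library size that TMM had scaled over all 9 libraries. Id2 stood at 12.3, 23.9 and 8.98 CPM in the Id2-null libraries, against 407, 401 and 374 CPM in the WT libraries, so the genotype labels held. Xist and the Y-linked genes divided the cultures in the same way, with Xist at 657 to 874 CPM in Id2-null and 0.208 to 1.15 CPM in WT libraries, so sex and genotype cannot be told apart in any gene compared. All 10 NK markers examined were detected in every library, and summed to 9441.1 to 10042.7 CPM in Id2-null, 17935.5 to 21721.0 CPM in WT, and 15288.0, 25273.5 and 38041.3 CPM in Immature, M1 and M2 cells. The lower sum in Id2-null cells came from the cytotoxic genes Gzmb (2286 against 8901 CPM in WT cells, called lower), Gzma (465 against 3701 CPM) and Prf1 (501 against 1450 CPM), while 5 of the 10 markers had fold changes above 0, among them Ncr1 at 595 against 474 CPM. In these bulk samples fewer cells of a kind and less RNA per cell cannot be told apart. The 6 T cell markers summed to 179 to 324 CPM in Id2-null and 52.9 to 206 CPM in WT cultures, with Cd4 at 0 counts in all 6. The markers went different ways. Cd3d averaged 115 against 27.9 CPM in Id2-null and WT cells and Cd3g 108 against 36.4 CPM, while Cd3e averaged 14.7 against 39.1 CPM. With the replicate block edgeR called Cd3d higher and Cd3e lower but not Cd3g, and without the block it called none of them. DESeq2 and limma voom, without a block, called 1 T cell marker each. The 8 myeloid markers summed to at most 3.12 CPM in the cultures. The part of other cells in the genotype values was not tested. In the sorted libraries the myeloid sum was 189, 209 and 927 CPM in Immature, M1 and M2 cells, and the T cell sum was 515, 73.9 and 119 CPM.

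None of the 10 members was called different between Id2-null and WT cultures, although Bcl2 and Bbc3 were higher and Bmf lower in all Id2-null libraries than in any WT library. Such a lack of overlap, in one direction or the other, was found in 20.4% of all tested genes. Of all 11022 genes tested, 377 were called, which is 3.42%, with 1.91% higher and 1.52% lower in Id2-null cells. A call is an adjusted p under 0.05 in edgeR's quasi-likelihood fit, by the method of Benjamini and Hochberg. Blocking on the replicate number called 7.58% of genes and again 0 members. Among the members 3 had an unadjusted p under 0.05, a mark that 14.6% of all tested genes reached, and DESeq2 and limma voom called 0 members each. All 10 passed the filter on low counts. Their median log2 fold change was 0.28, against 0.01 over all tested genes, with 7 members above 0 and 3 below. Several of these values depended on Id2-null replicate 3. Without it Mcl1, Bax and Bbc3 fell to 0.03, 0.07 and 0.39, and Bcl2l11 and Pmaip1 to -0.15 and -0.33. Bcl2 and Bcl2l1 rose instead, to 0.44 and 0.28, and Bid and Bak1 to 0.11 and 0.08. The median without that library was not computed. Of all tested genes 5740 were above 0 and 5282 below.

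**Figure D1:**
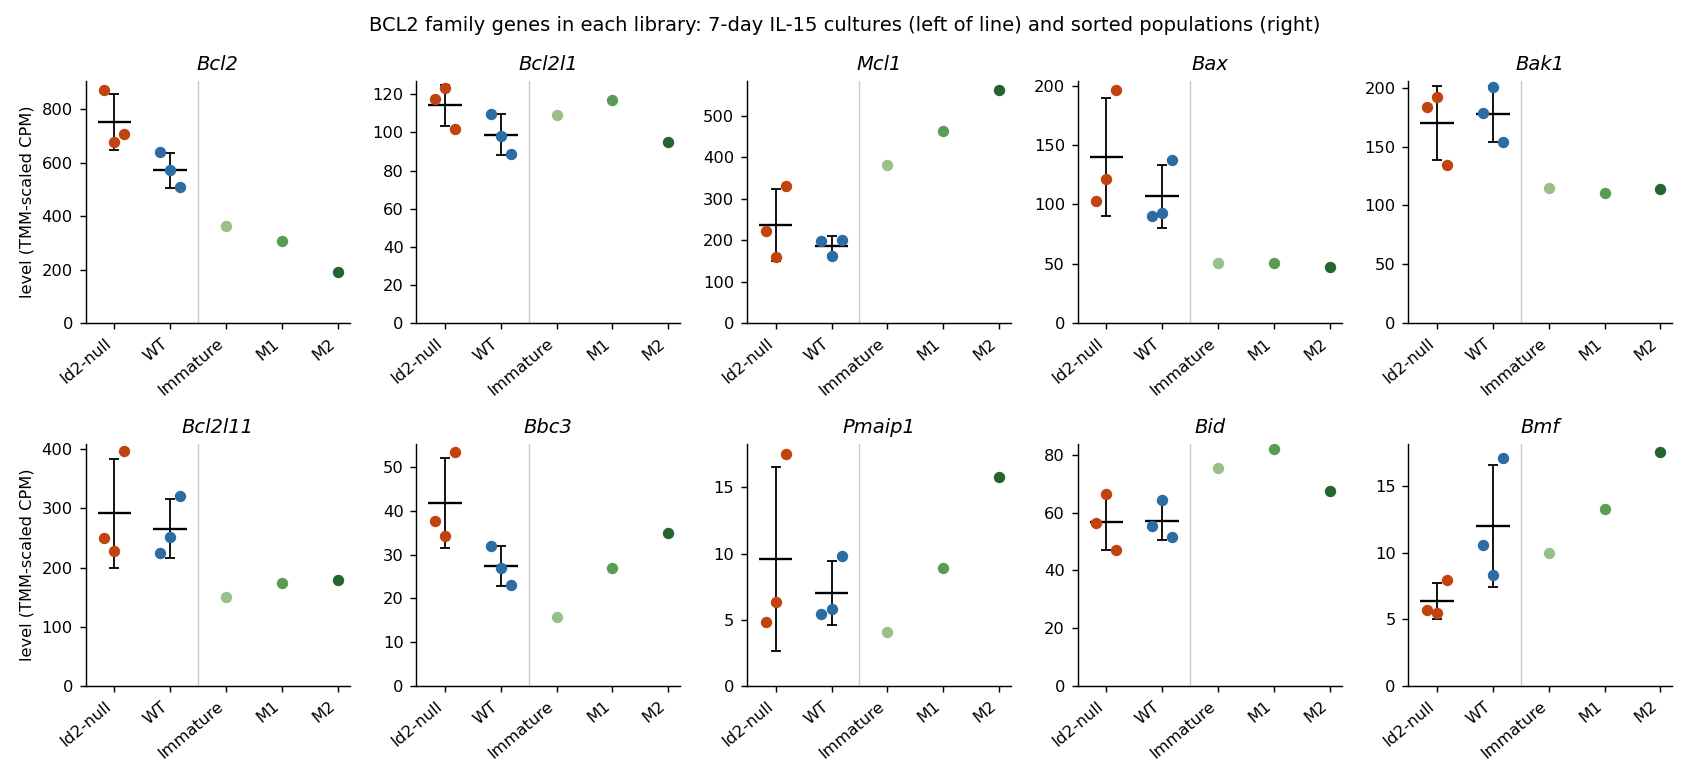
Level of each of the 10 genes (TMM-scaled CPM, axis from 0) in the 3 Id2-null and 3 WT cultures, with mean and SD, and in the single Immature, M1 and M2 libraries. Bcl2 lay lowest in M2 at 193 CPM and Mcl1 highest there at 563 CPM, while Bcl2, Bbc3 and Bmf were the members whose genotypes did not overlap.

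Among the guardians, Bcl2, the founding survival gene of the family (Entrez 12043, chromosome 1, positions 106538176 to 106714290 in GRCm38), had the highest mean per kilobase of transcript among the guardians in both genotypes, and was above Mcl1 in each culture except Id2-null replicate 3. It stood at 871, 678 and 706 CPM in Id2-null libraries, against 638, 571 and 507 CPM in WT libraries. Every Id2-null library lay above every WT library, and 20.4% of all tested genes had no overlap between genotypes in one direction or the other. The means were 751 ± 104 CPM and 572 ± 65.6 CPM (SD, n = 3 each). The log2 fold change came to 0.40 with a 95% interval from 0.07 to 0.73 (adjusted p = 0.237, edgeR). With the replicate block the adjusted p was 0.0574, still outside the threshold. Bcl2l1 (Entrez 12048, chromosome 2, 152758732 to 152833803), which encodes BCL-XL, stood at 118, 123 and 102 CPM in Id2-null libraries, against 110, 98.4 and 88.5 CPM in WT libraries. The genotypes overlapped, and the log2 fold change of 0.21 had an interval from -0.08 to 0.51 (adjusted p = 0.530, edgeR). Mcl1 (Entrez 17210, chromosome 3, 95656944 to 95663179), a short-lived guardian that binds BIM, NOXA and BAK, stood at 222, 160 and 331 CPM in Id2-null libraries, against 198, 162 and 201 CPM in WT libraries. Its highest value came from Id2-null replicate 3, and the log2 fold change was 0.35 with an interval from -0.25 to 0.95 (adjusted p = 0.624, edgeR). Without Id2-null replicate 3 it was 0.03.

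The effectors did not separate by genotype. Bax (Entrez 12028, chromosome 7, 45461695 to 45466903), whose protein moves from the cytosol into the mitochondrial membrane, stood at 103, 121 and 197 CPM in Id2-null libraries, against 90.1, 93.2 and 137 CPM in WT libraries. Replicate 3 was the highest in both genotypes. Within each replicate number the Id2-null value was above the WT value, by 0.19, 0.38 and 0.52 on the log2 scale for replicates 1 to 3. Its fitted log2 fold change of 0.40 had an interval from -0.27 to 1.06 (adjusted p = 0.616, and 0.0765 with the replicate block, edgeR). It was 0.07 without Id2-null replicate 3 and 0.62 without WT replicate 3. Bak1 (Entrez 12018, chromosome 17, 27019812 to 27028627), whose protein sits in the mitochondrial membrane, stood at 184, 192 and 134 CPM in Id2-null libraries, against 178, 201 and 153 CPM in WT libraries. The interval of its log2 fold change, -0.44 to 0.32, leaves out a 2-fold difference either way (adjusted p = 0.923, edgeR).

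Among the BH3-only genes, Bbc3 lay higher and Bmf lower in every Id2-null library, without a call, and Bcl2l11 did not separate. Bcl2l11 (Entrez 12125, chromosome 2, 128126038 to 128162547), which encodes BIM, was the most abundant of these genes at 250, 227 and 397 CPM in Id2-null libraries, against 224, 252 and 321 CPM in WT libraries. Its log2 fold change was 0.14, with an interval from -0.41 to 0.69 (adjusted p = 0.856, edgeR), and the sign turned to -0.15 without Id2-null replicate 3. Bbc3 (Entrez 170770, chromosome 7, 16308398 to 16318334), which encodes the p53 target PUMA, stood at 37.6, 34.2 and 53.5 CPM in Id2-null libraries, against 32.0, 27.1 and 23.1 CPM in WT libraries. All Id2-null values were above all WT values, with means of 41.8 ± 10.3 and 27.4 ± 4.49 CPM (SD, n = 3 each). On the log2 scale the difference was 0.62 (interval 0.14 to 1.09, adjusted p = 0.200, edgeR). Most of that gap came from replicate 3, where the log2 difference within the pair was 1.19, against 0.23 and 0.33 in replicates 1 and 2. Without Id2-null replicate 3 the log2 fold change was 0.39.

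Bmf (Entrez 171543, chromosome 2, 118528757 to 118549686), whose product is held by the dynein light chain of the myosin V motor until released, was rare, with 26, 26 and 39 counts in Id2-null and 51, 40 and 89 counts in WT libraries. These are 5.72, 5.49 and 7.96 CPM in Id2-null cells, against 10.6, 8.32 and 17.1 CPM in WT cells. The genotypes did not overlap, the highest Id2-null value being just under the lowest WT value. The means were 6.39 ± 1.36 and 12.0 ± 4.56 CPM (SD, n = 3 each), and the log2 fold change was -0.91 (interval -1.64 to -0.17, adjusted p = 0.229, and 0.0547 with the replicate block, edgeR). Without WT replicate 3 the log2 fold change was -0.56. Pmaip1, which encodes the MCL1 antagonist NOXA, had 4.84, 6.34 and 17.5 CPM in Id2-null libraries, against 5.41, 5.83 and 9.81 CPM in WT libraries. Its highest value in each genotype was replicate 3, and its interval, from -0.74 to 1.65 on the log2 scale, was the widest of the members. Bid (Entrez 12122, chromosome 6, 120893119 to 120917062), which caspase-8 and granzyme B cleave into an active form, stood at 56.3, 66.5 and 47.1 CPM in Id2-null libraries, against 55.4, 64.3 and 51.5 CPM in WT libraries. Its log2 fold change was 0.00, with an interval from -0.37 to 0.36 (adjusted p = 0.997, edgeR).

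**Figure D2:**
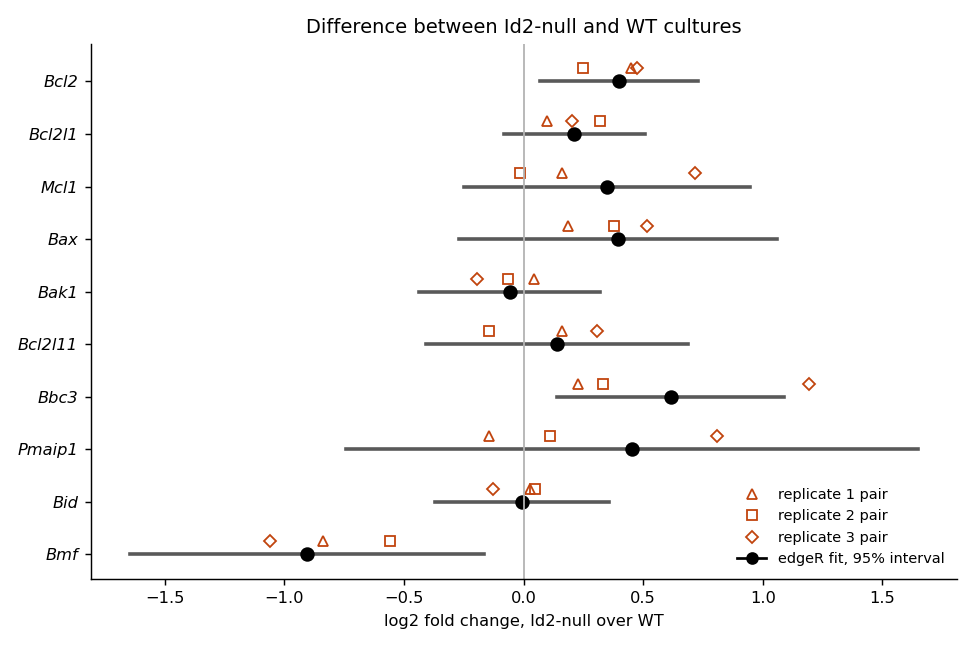
Log2 fold change of each member, Id2-null over WT (x axis), from edgeR with its 95% interval (black) and within each same-numbered pair of cultures (open symbols, on log2 of CPM plus 0.5). The 3 pairs lie on 1 side of 0 for Bcl2, Bcl2l1, Bax and Bbc3, which were higher in Id2-null cells, and for Bmf, which was lower.

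In 5 members all 3 same-numbered pairs pointed the same way, as in 43.4% of all tested genes. The replicate number itself went with larger differences than the genotype in several members. Replicate 3 held the highest value in both genotypes for Mcl1, Bcl2l11, Bax, Pmaip1 and Bmf, as in 20.7% of all tested genes, and the lowest in both for Bcl2l1, Bid and Bak1, as in 21.7%. Bcl2l11 in replicate 3 was 1.66 times the mean of replicates 1 and 2 in Id2-null cells and 1.35 times in WT cells, and Bax was 1.75 times in Id2-null and 1.5 times in WT cells. Pmaip1 was 3.14 times that mean in Id2-null and 1.75 times in WT cells. Bnip3, a hypoxia-responsive relative of the family, moved the other way, at 85.4, 51.1 and 12.0 CPM in Id2-null libraries, against 129, 84.9 and 6.73 CPM in WT replicates 1 to 3. The sources used here do not say what sets replicate 3 apart, and it was not tested.

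Promoter sequence is shown for the 3 members whose genotypes did not overlap, since E proteins bind E-box letters and ID2 holds E proteins back. Each run is the RefSeq window of GRCm38.p6, 5′ to 3′ on the gene's strand, from 250 bases before an annotated start to 50 after it. Capitals mark CAGCTG, and CAGGTG or its reverse complement CACCTG, searched on both strands, and no 2 matches overlap. Bbc3 and Bmf have 3 annotated starts each. Bmf is shown at its outermost start and Bbc3 at the one of its starts whose last 25 window bases were found in a GENCODE transcript of the gene. These windows were chosen after the matches were seen.
Bcl2 (chr1:106714241-106714540, minus strand): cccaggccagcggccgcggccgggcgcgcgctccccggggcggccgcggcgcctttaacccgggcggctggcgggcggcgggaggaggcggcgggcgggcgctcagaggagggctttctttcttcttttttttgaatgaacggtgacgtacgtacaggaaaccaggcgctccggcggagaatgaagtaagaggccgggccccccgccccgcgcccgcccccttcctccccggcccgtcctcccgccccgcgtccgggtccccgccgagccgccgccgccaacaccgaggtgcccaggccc
Bbc3 (chr7:16310181-16310480, plus strand): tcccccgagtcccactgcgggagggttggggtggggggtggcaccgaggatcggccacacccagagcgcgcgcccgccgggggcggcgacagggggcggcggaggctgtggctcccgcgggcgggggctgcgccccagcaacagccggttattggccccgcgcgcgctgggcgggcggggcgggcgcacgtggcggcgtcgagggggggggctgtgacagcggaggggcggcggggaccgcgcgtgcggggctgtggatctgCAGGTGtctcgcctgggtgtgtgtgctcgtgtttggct
Bmf (chr2:118549637-118549936, minus strand): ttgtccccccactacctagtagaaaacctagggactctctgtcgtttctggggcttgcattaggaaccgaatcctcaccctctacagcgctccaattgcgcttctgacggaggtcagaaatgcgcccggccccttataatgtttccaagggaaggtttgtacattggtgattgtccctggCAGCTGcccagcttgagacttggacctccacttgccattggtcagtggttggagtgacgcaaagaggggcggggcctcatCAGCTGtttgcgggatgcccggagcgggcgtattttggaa
The Bcl2 window holds neither motif. The Bbc3 window holds CAGGTG letters once, at base 13 after the start. The Bmf window holds CAGCTG at 70 bases before the start and at base 11 of the transcript, and the windows at the other Bmf starts also hold it. Windows were on hand for 9 members, 16 in all, of which 4 hold CAGCTG and 2 hold CAGGTG. The CAGCTG windows belong to Bmf and to Bcl2l11, a member whose genotypes overlapped. The CAGGTG windows both belong to Bbc3 and overlap each other. Of the 32851 mouse windows of the same length 16.3% hold CAGCTG and 20.2% hold CAGGTG. The spaced STAT motif TTCNNNGAA was in 0 of the 16 and in 8.3% of all windows. A match or its absence describes letters in these windows and was not tested against binding.

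Among genes that regulate the members Foxo1 rose in Id2-null cells. Of 21 genes known to regulate the members, 1 was called higher and 0 lower, against 1.91% higher and 1.52% lower over all tested genes. Foxo1, a transcription factor whose family can induce Bcl2l11 and Bbc3, rose to 270 ± 34.7 CPM in Id2-null cells, against 130 ± 8.58 CPM in WT cells (SD, n = 3 each, log2 fold change 1.06, adjusted p = 0.00335, edgeR). That call held in all 15 alternatives, with adjusted p from 4.8e-09 to 0.0289. Foxo3, a gene of the same family, moved the opposite way without a call (log2 fold change -0.38, adjusted p = 0.272, edgeR). Its Id2-null values of 33.9, 28.9 and 25.9 CPM all lay below its WT values of 39.5, 37.5 and 38.9 CPM. The activity of the family was not tested. With the replicate block Hif1a was called higher besides Foxo1 (adjusted p = 0.0320, edgeR), as was Pim2 (adjusted p = 0.000547, edgeR). Over all tested genes the block called 7.58%. Pim2, a survival kinase encoded on the X chromosome, stood at 899, 851 and 408 CPM in Id2-null libraries, against 407, 373 and 198 CPM in WT libraries. The lowest Id2-null value, in replicate 3, was just above the highest WT value, in replicate 1, while the log2 difference within each replicate number was 1.14, 1.19 and 1.04. DESeq2 called 3 of the regulators and limma voom 1, against 580 and 323 of all 11022 genes tested.

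The 4 lists that follow gave no call in edgeR, DESeq2 or limma voom. Of 15 other BCL2 family genes 8 passed the filter, with 0 called and 0 at an unadjusted p under 0.05. The most abundant were Bnip3l, a mitophagy receptor, at 170 against 129 CPM in Id2-null and WT cells, and Bcl2l13 at 79.2 against 87.1 CPM. With the block Bcl2a1d, a copy of the A1 guardian, was called lower (adjusted p = 0.0385, edgeR) at 1.10, 1.48 and 7.96 CPM in Id2-null libraries, against 6.87, 7.70 and 14.6 CPM in WT libraries. The Bcl2a1 genes are near-identical copies, so how their reads were counted is uncertain. Of 7 IAP genes, whose proteins restrain caspases, 0 were called and 0 had an unadjusted p under 0.05, with Birc6 at 273 against 286 CPM and Xiap at 137 against 134 CPM. Of 9 death receptor genes 0 were called and 1 had an unadjusted p under 0.05, with Cflar, the caspase-8 brake, at 103 against 115 CPM and Ripk1 at 95.1 against 105 CPM. Of 10 mitochondrial membrane partners 0 were called and 0 had an unadjusted p under 0.05, with the channel genes Vdac1 at 228 against 201 CPM and Vdac2 at 176 against 165 CPM.

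Across the sorted wild-type populations Bcl2 was lower and Mcl1 higher at each step from Immature over M1 to M2. With TMM scaling neither was past 2-fold between Immature and M2 cells. How many of all genes keep a steady order over these libraries was not counted, so such orders have no background share. There is 1 library per population, so these are values without a test, and intervals are 95% counting intervals that leave out variation between mice. Bcl2 stood at 364, 306 and 193 CPM in Immature, M1 and M2 cells. M2 held 0.529 times the Immature level (interval 0.484 to 0.577). Mcl1 ran the other way at 381, 464 and 563 CPM, a ratio of 1.48 in M2 over Immature (interval 1.38 to 1.58). Bcl2l1 stood at 109, 117 and 94.8 CPM and followed neither order. The guardians summed to 202, 222 and 226 CPM per kilobase in Immature, M1 and M2 cells, so the sum moved little while its make-up changed. Bcl2 gave 23.3, 17.8 and 11.0% of that sum and Mcl1 54.0, 59.9 and 71.3%.

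**Figure D3:**
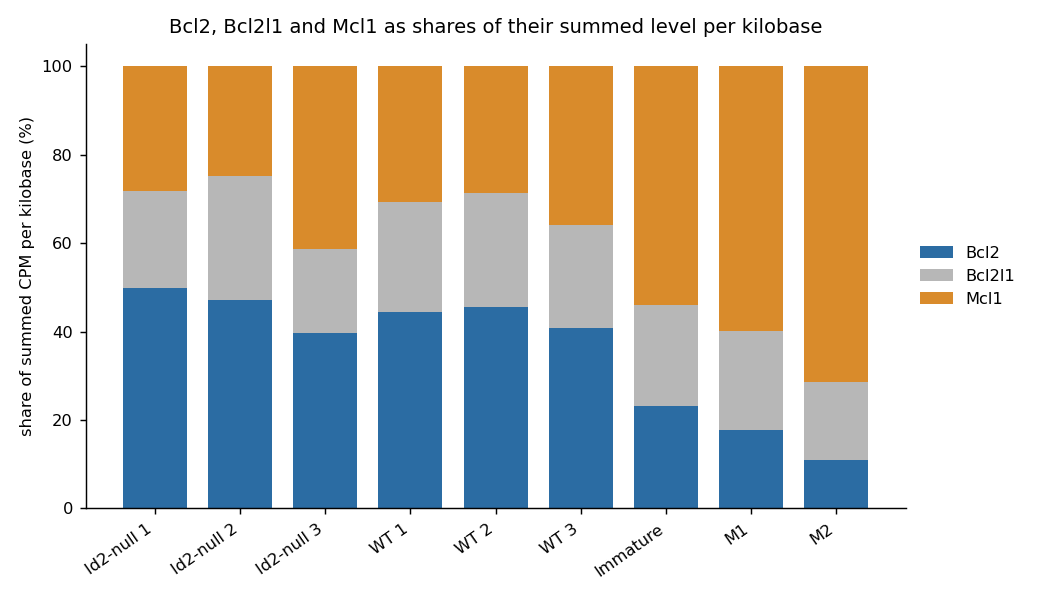
Share of Bcl2, Bcl2l1 and Mcl1 in their summed level per kilobase of transcript (percent, y axis) in each of the 9 libraries. Bcl2 makes up 39.8 to 49.8% in Id2-null and 40.8 to 45.6% in WT cultures and 11.0% in M2 cells, where Mcl1 makes up 71.3%.

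The BH3-only genes Bbc3 and Pmaip1 were over 2-fold higher in M2 than in Immature cells, a difference that 7.47% of 11267 genes with at least 10 counts in either library showed upward, 5.96% downward and 13.4% in all. Pmaip1 stood at 4.09, 8.93 and 15.8 CPM in Immature, M1 and M2 cells, from 16, 37 and 63 counts. The M2 over Immature ratio was 3.87 (interval 2.21 to 7.17). Bbc3 stood at 15.8, 27.0 and 34.9 CPM, a ratio of 2.20 (interval 1.62 to 3.02). Bmf followed the same order at 9.96, 13.3 and 17.6 CPM with a ratio of 1.76 (interval 1.18 to 2.68), and Bcl2l11 at 151, 173 and 179 CPM with 1.19 (interval 1.07 to 1.33). The remaining members had M2 over Immature ratios between 0.867 and 1.00, Bcl2l1 lying lowest and Bak1 highest. With library sizes alone as scaling Bcl2 also lay past 2-fold lower. At the first step, M1 over Immature, Pmaip1 was the single member past 2-fold, where 6.99% of all genes were (2.24% higher, 4.75% lower), and with a pseudocount of 2 CPM in place of 0.5 it was not. From M1 to M2 no member was past 2-fold, where 7.33% of all genes were (5.4% higher, 1.93% lower).

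**Figure D4:**
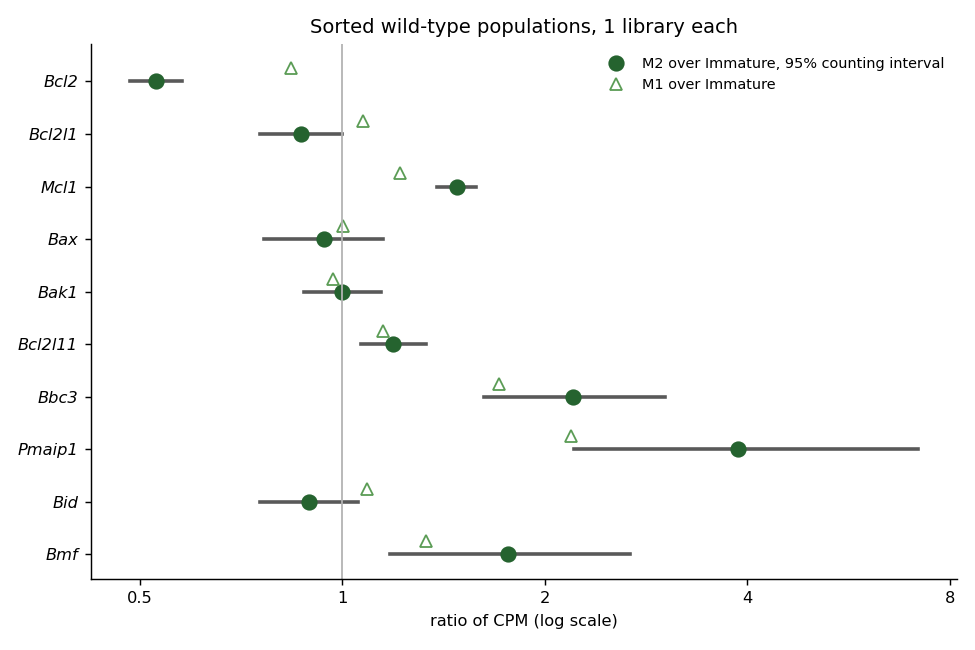
Ratio of CPM between sorted populations for each member (log axis), M2 over Immature as filled points with 95% counting intervals and M1 over Immature as open triangles. Bcl2 is lowest at 0.529 and Pmaip1 highest at 3.87, and Bax and Bak1 lie near 1.

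Myeloid markers moved with this order, all 8 of them past 2-fold higher in M2 than in Immature cells, and B cell markers summed to 22.7, 27.5 and 88.2 CPM in Immature, M1 and M2 cells. The T cell markers Cd3d, Cd3e and Cd3g were past 2-fold lower in M2 than in Immature cells, and Cd4 and Cd8b1 past 2-fold higher. Their part in the member values was not tested. Of the maturation markers, Cd27, which mature NK cells lose, stood at 191, 143 and 39.1 CPM and Klrg1, which they gain, at 10.5, 42.5 and 894 CPM in Immature, M1 and M2 cells. Of the 21 regulators, 2 were past 2-fold lower in M2 than in Immature cells (Myc and Pim2), where 5.96% of all genes were. Another 2 were past 2-fold higher (Cdkn1a and Tsc22d3), where 7.47% of all genes were. Cdkn1a had 12 counts in the Immature library, and Tsc22d3 was not past the limit with library sizes alone. These regulators were picked out after their sorted values were seen.

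Bax was past 2-fold higher and Mcl1 past 2-fold lower in cultured WT cells than in the sorted populations, without overlap between the libraries. Of 11433 genes 30.0% were past that limit without overlap, 16.0% higher and 14.0% lower. The Immature, M1 and M2 libraries are not replicates of one another, so no test was made, and culture, time, sorting and sex cannot be told apart. The sorted libraries held Xist at 90.5 to 127 CPM together with the Y-linked Ddx3y at 37.1 to 46.3 CPM, against 0.208 to 1.15 CPM of Xist and 71.7 to 78.4 CPM of Ddx3y in WT cultures. Bcl2 stood at 638, 571 and 507 CPM in cultured WT cells, against 364, 306 and 193 CPM in Immature, M1 and M2 cells. The ratio of the means was 1.99, just inside a 2-fold limit that it passed with library sizes alone. Bax stood at 90.1, 93.2 and 137 CPM in cultured WT cells, against 50.6, 50.7 and 47.4 CPM in the sorted cells. Its sorted values were nearly level and its ratio was 2.16. Mcl1 stood at 198, 162 and 201 CPM in cultured WT cells, against 381, 464 and 563 CPM in the sorted cells, a ratio of 0.399.

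Mcl1 and Bax were thus the 2 members past 2-fold without overlap, where 30.0% of 11433 genes were, 16.0% higher and 14.0% lower in culture, so that 53.5% of the genes past the limit were higher. Library sizes alone put 64.0% of such genes higher in culture and moved the median log2 ratio of all genes by 0.17, and added Bcl2. Bcl2, Bcl2l11 and Bak1 were also higher in every cultured WT library than in any sorted one, with ratios of 1.99, 1.58 and 1.57. Bid was lower, with 0.761. How many of all genes lacked overlap at any ratio was not counted, so these separations have no background share. Bcl2l1, Bbc3, Pmaip1 and Bmf overlapped. Of the 21 regulators 5 were past 2-fold higher in culture without overlap (Cdkn1a, Fbxw7, Myc, Nfil3 and Trp53) and 3 lower (Ddit3, Ets1 and Tsc22d3), of which only Tsc22d3 was past that limit with library sizes as the scaling. Cdkn1a, a brake on the cell cycle, stood at 162, 175 and 162 CPM in cultured WT cells, against 3.06, 9.90 and 13.5 CPM in Immature, M1 and M2 cells. Of the 9 death receptor genes Mlkl, Ripk3 and Tnfrsf10b were higher and Fas lower, Fas averaging 1.75 CPM in cultured WT cells and 4.91 CPM over the sorted libraries. Myeloid markers were at most 3.12 CPM in sum in WT cultures and 189 to 927 CPM in the sorted libraries, and their part in these values was not tested.

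Per kilobase of transcript, Bax was the most abundant member in both kinds of culture, at 161 ± 57.2 in Id2-null and 123 ± 30.4 CPM per kilobase in WT cells (SD, n = 3 each). Next by mean came Bcl2 at 97.0 ± 13.5 in Id2-null, and Bak1 at 88.6 ± 11.8 in WT cells. The Id2-null order did not hold in each library. Bak1 was above Bcl2 in replicate 2 (95.87 against 87.44 CPM per kilobase), and Mcl1 was above Bcl2 in replicate 3 (94.87 against 91.07). In WT cells Bak1 was above Bcl2 (73.8 ± 8.47) in each library, at 88.96, 100.3 and 76.66 against 82.38, 73.65 and 65.45 CPM per kilobase. Mcl1 (53.6 ± 6.38) and Bcl2l11 (52.7 ± 9.91) did not differ by more than their spread in WT cells. Pmaip1 and Bmf were lowest, at 3.61 and 1.38 in Id2-null and 2.64 and 2.59 CPM per kilobase in WT cells. In the sorted libraries Mcl1 led, at 109, 133 and 161 CPM per kilobase in Immature, M1 and M2 cells. Gene length is that given in the files, and isoforms or uneven coverage along a transcript can shift such comparisons between genes.

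The level of Bcl2 relative to its antagonist Bcl2l11, per kilobase, ran over a similar range in both genotypes. It was 2.26, 1.94 and 1.16 in Id2-null libraries, against 1.85, 1.48 and 1.03 in WT libraries, and 1.57, 1.15 and 0.697 in Immature, M1 and M2 cells. Replicate 3 had the lowest value in each genotype. In each replicate number the Id2-null value was above the WT value, and along the sorted order the value declined. The guardians summed to 226, 185 and 229 CPM per kilobase in Id2-null and 186, 161 and 160 in WT libraries, and the BH3-only genes to 102, 101 and 139 in Id2-null and 94.3, 102 and 110 in WT libraries. These ratios and sums describe transcripts and carry no test.

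Some genes followed single members closely over the 9 libraries, as a description over libraries that share the split between culture and sorting. Among 9018 genes with a mean of at least 10 CPM, Ift57, Surf2 and Rsad1 were most like Bcl2 (Pearson's r of 0.988, 0.987 and 0.984 on log2 CPM). Ift57, which encodes a part of the ciliary transport machinery, stood at 43.7 to 62.9 CPM in Id2-null, 32.5 to 37.2 CPM in WT, and 14.3, 11.8 and 4.51 CPM in Immature, M1 and M2 cells. Snx12, Trim30a and Shprh were most like Mcl1 (0.988, 0.985 and 0.984). Cemip2, Hdgfl3 and Zfp760 were most like Bcl2l11 (0.979, 0.970 and 0.961), and Cemip2 shared its peak in replicate 3, at 152 CPM in Id2-null libraries, against 91.2 CPM in WT cells.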

How the data were processed

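RNA from 9 mouse NK libraries was counted per gene. The authors deposited whole-number counts per Entrez gene with a gene length, made with Subread and featureCounts on GRCm38/mm10, per the submitters' processing notes, in which limma is also named. The sources used here do not give the annotation, the strand setting or the treatment of multi-mapping reads.

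Entrez identifiers were matched to symbols for 25275 of 27179 genes. Counts of the 6 cultured libraries were tested with edgeR 4.0.16 in R 4.3.3, using TMM scaling, filterByExpr with a minimum count of 10 (11022 genes kept) and robust quasi-likelihood fits, and p-values were Benjamini-Hochberg adjusted over all tested genes. DESeq2 1.42.0 and limma 3.58.1 (voom) were alternatives, and the scripts were tested on simulated data. The comparison of sorted libraries used CPM plus 0.5, a 2-fold limit, and genes with at least 10 counts in 1 of the libraries compared. The comparison of cultured with sorted libraries used the 11433 genes kept over all 9. Robust fitting was set after the files were seen, and without it 370 genes were called in place of 377.

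Same-numbered Id2-null and WT libraries deviated together from their genotype means (correlations of 0.352, 0.241 and 0.417), so the replicate numbers from the labels were taken as pairs and a fit with the number as a block was made. Replicates 1 and 2 also correlated across numbers (0.189 and 0.136), and replicate 3 with the others at -0.397 to -0.261. The values thus mainly set replicate 3 apart and say little on pairing within replicates 1 and 2. In none of the 6 within-genotype pairs of cultured libraries did counts agree within sampling noise. The members and gene lists were chosen with earlier results of these data known. Text names all members, up to 4 called genes per list or, in a list with no call, its 2 most abundant genes, and the 3 genes most like Bcl2, Mcl1 and Bcl2l11. Other genes named were picked after their values were seen. The chromosome 18 promoter of Pmaip1 was not used here, and protein sequences were not analysed here. One further gene list is not reported here.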

Additional observations from a re-analysis of the deposited data

How the results depend on the processing

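No member was called in any of the 15 alternative fits of Id2-null against WT, with fitted log2 fold changes of 0.28 to 0.48 for Bcl2, 0.28 to 0.74 for Bbc3 and -1.11 to -0.56 for Bmf, the last without WT replicate 3. The count over all genes, 377, was 580 in DESeq2, 836 with the replicate block and 1066 without replicate 3 of both genotypes, which leaves 2 libraries each. Leaving out 1 library gave 121 to 662 calls: 175, 180 and 662 without Id2-null replicates 1 to 3, and 121, 183 and 273 without WT replicates 1 to 3. The block moved no member across the threshold. Signs turned only in values near 0 or led by 1 library. Without Id2-null replicate 3 the log2 fold change was -0.152 for Bcl2l11, -0.33 for Pmaip1, 0.108 for Bid, 0.0828 for Bak1 and -0.074 for Xiap. Without replicate 3 of both genotypes it was -0.0021 for Pmaip1, 0.0418 for Bid and -0.081 for Xiap. Without WT replicate 2 it was 0.0874 for Bid and 0.0379 for Bak1. Bid was at 0.000841 when genes of any count were kept. Without Id2-null replicate 1 Bid was at 0.00319 and Bnip3l at -0.00535, and without Id2-null replicate 2 Birc6 was at 0.0551. Over the fits that leave out 1 library, the far ends were 0.301 for Bcl2l11, 0.779 for Pmaip1, -0.136 for Bid, -0.155 for Bak1, -0.197 for Birc6 and 0.126 for Xiap. The cause was not tested. In the sorted libraries, a pseudocount of 2 CPM left 0 members past 2-fold between M1 and Immature cells, and library sizes alone gave 3 in M2 over Immature and 3 in cultured WT over sorted cells. At this depth 3 counts correspond to 0.621 to 0.727 CPM by library totals without TMM scaling, which limits Pmaip1 and Bmf most. Intervals in the sorted libraries cover counting error only.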
